A study of Mus musculus with 29 samples.

Results

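The Period genes Per1, Per2 and Per3 and the Cryptochrome genes Cry1 and Cry2 were examined for binding of the glucocorticoid receptor (GR) and of C/EBPβ in mouse liver. Members were all ChIP-seq peaks and ChIP-exo borders whose centre lay in 1 of 5 windows of the mm9 build, 1 around each gene. The windows spanned 110 kb of chromosome 11 for Per1, 150 kb of chromosome 1 for Per2, 140 kb of chromosome 4 for Per3, 160 kb of chromosome 10 for Cry1 and 140 kb of chromosome 2 for Cry2. They held 62 of the 38186 GR peaks in the 6 GR ChIP-seq lists, 113 of the 69811 C/EBPβ peaks in the 3 C/EBPβ lists and 460 of the 255667 borders in the 6 ChIP-exo lists. Merged where they overlapped by at least 1 bp, the 62 GR peaks made 22 regions of 15329 over all lists, which are numbered along the chromosome within each window (Per1 region 1 and so on).

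GR was profiled by ChIP-seq and by ChIP-exo, and C/EBPβ by ChIP-seq, in livers of 12-week-old male mice on a BALB/c back-cross. WT means GR+/+ litter mates and GRdim the mutant mice, and both were kept in a 12 h light cycle with collection at 6am, when the light phase began, or at 6pm, when the dark phase began. A further group of each genotype was collected at 6am after 24 h with subcutaneous prednisolone pellets (12 mg/kg), a synthetic glucocorticoid, and C/EBPβ was profiled in WT under all 3 conditions. Each list is 1 pool of 2 replicates, so no list has a spread and no difference below could be tested against replicate error. GRdim is known as a point mutant of GR in the dimer interface of its DNA-binding domain, carried in the whole animal, so other tissues and the hormone axis of these mice carry it too. Fewer GR-positive cells and less GR per cell cannot be told apart in whole liver, and the liver label could not be checked against marker genes because no expression was measured here.

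PER and CRY proteins form the complex that represses the activator pair CLOCK and BMAL1, and their own genes are among the targets of that pair, which closes the negative loop of the circadian clock. Glucocorticoids, whose level in blood rises towards the active phase, are known to act on the liver clock, and Per1 and Per2 are textbook GR-responsive genes. CRY proteins have also been described as binding partners and repressors of GR. C/EBPβ is a leucine zipper factor of hepatocytes that often shares its sites with GR.

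The windows also span other genes, and peaks were assigned to a window and not to a gene. In RefSeq (GRCm38.p6, names only) the nearest protein-coding genes on either side are Vamp2 and Hes7 for Per1 (NCBI gene 18626), Hes6 and Traf3ip1 for Per2 (18627), Tnfrsf9 and Gm38529 for Per3 (18628), Mterf2 and Btbd11 for Cry1 (12952), and Mapk8ip1 and Slc35c1 for Cry2 (12953), and Uts2 overlaps Per3. Exons, introns and start sites could not be placed on mm9 here, so no distance from a peak to a promoter is given.

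RefSeq promoter sequences, 250 bases before to 50 after a start, were found for 4 of the 5 genes, with 2 for Per1 and none for Per2. They were searched on both strands for 7 motifs. Neither the GR palindrome core ACANNNTGT, present in 6.85% of all 32851 promoters of this length, nor the GR half-site AGAACA, present in 19%, was found in any of the 5, and these motifs share the letters ACA. The CRE TGACGTCA, present in 1.79%, was also not found. The 3 promoters with a match are shown 5′ to 3′, with matches in capitals and coordinates on GRCm38.p6.
Per1 promoter 1, chr11:69098699-69098998, plus strand: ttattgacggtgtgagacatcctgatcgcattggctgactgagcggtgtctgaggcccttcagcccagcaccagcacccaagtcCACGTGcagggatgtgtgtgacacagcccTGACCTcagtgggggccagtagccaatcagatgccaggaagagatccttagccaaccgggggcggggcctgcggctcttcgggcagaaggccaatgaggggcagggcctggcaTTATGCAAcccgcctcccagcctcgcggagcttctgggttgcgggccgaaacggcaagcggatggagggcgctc
Per3 promoter, chr4:151044616-151044915, minus strand: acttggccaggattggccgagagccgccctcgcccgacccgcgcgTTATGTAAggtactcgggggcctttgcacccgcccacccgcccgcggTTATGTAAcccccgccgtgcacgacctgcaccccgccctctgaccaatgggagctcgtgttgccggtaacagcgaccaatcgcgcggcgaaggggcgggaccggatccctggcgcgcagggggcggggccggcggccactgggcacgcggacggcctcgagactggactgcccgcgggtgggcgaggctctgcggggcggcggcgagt
Cry1 promoter, chr10:85185005-85185304, minus strand: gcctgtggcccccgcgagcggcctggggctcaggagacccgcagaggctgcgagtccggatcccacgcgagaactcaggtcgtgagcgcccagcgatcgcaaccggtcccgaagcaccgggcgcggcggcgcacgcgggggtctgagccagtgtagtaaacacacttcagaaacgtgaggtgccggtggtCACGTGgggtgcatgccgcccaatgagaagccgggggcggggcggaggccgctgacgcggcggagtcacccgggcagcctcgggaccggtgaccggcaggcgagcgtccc
The Per1 promoter held 1 E-box CACGTG, the letters known for CLOCK and BMAL1 (in 7.15% of promoters), 1 nuclear receptor half-site AGGTCA on the reverse strand (16.3%) and 1 C/EBP motif TTGCNNAA on the reverse strand (10.8%). The Per3 promoter held 2 copies of the D-box TTATGTAA, the letters known for DBP and its relatives, which 0.938% of promoters contain. The Cry1 promoter held 1 E-box. A match describes letters only, and because these sequences are on another build they could not be laid over the peaks.

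Binding was uneven over the 5 windows. The Per1 window held 5 GR regions, the Per2 window 10, the Cry2 window 6 and the Cry1 window 1, while the Per3 window held no GR peak in any of the 6 lists. In WT the windows together held 8 GR peaks in the 6am list, 18 in the 6pm list and 9 in the prednisolone list, and in GRdim 8, 12 and 7. Those lists differ in length over the whole genome as well, with 5781, 14270 and 4304 peaks in WT and 3183, 7440 and 3208 in GRdim. Each peak's score was assigned by the authors, and its unit is not stated. The lowest score was 2.00 to 2.03 in the 6 GR lists, and binding weaker than that would not be listed. The median score at 6am, at 6pm and after prednisolone was 2.89, 3.36 and 2.93 in WT and 2.71, 2.88 and 2.6 in GRdim, so it was highest at 6pm in both. Scores of a region in several lists are set side by side and carry no error.

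**Figure D1:**
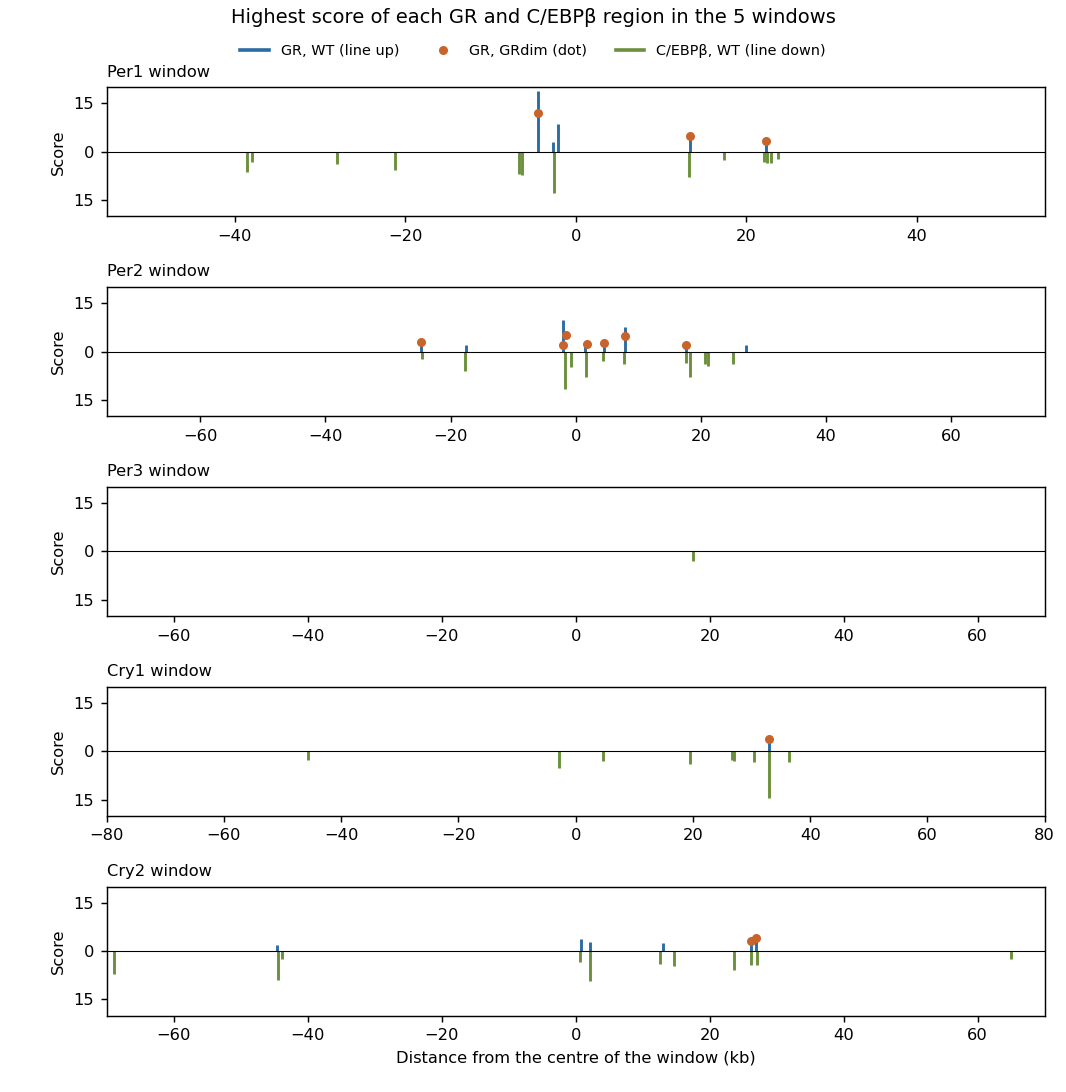
Highest score of each merged GR region in WT (blue line up) and in GRdim (orange dot) and of each merged C/EBPβ region in WT (green line down), against distance from the window centre in kb for each of the 5 windows. The Per1 window holds the highest GR score (18.82), and the Per3 window holds 1 C/EBPβ region and no GR region.

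The strongest binding of the 5 windows was at Per1. Per1 region 1 (chromosome 11, 68910477 to 68910688) was listed in all 6 GR lists, with WT scores of 16.48 at 6am, 18.82 at 6pm and 16.14 after prednisolone, and GRdim scores of 9.80, 12.05 and 5.06 in the same order. Within its own list the peak ranked 20th of 5781, 33rd of 14270 and 30th of 4304 in WT, and 12th of 3183, 6th of 7440 and 126th of 3208 in GRdim. It was thus in the top 1% by score in 5 lists and in the top 3.93% of GRdim after prednisolone.

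Per1 region 3 (68912815 to 68913022), 2337 bp from region 1 between centres, was listed in WT alone, with scores of 6.97 at 6am, 5.55 at 6pm and 8.78 after prednisolone. It is the single region of the windows that all 3 WT lists and no GRdim list held, 1 of 22 (4.55%) against 3.56% of all merged regions. Between these lay region 2 (68912246 to 68912445), listed in WT at 6pm alone with a score of 3.14. Region 4 (68928284 to 68928520) was again in all 6 lists, at 3.43, 4.09 and 3.90 in WT and 3.69, 4.29 and 4.76 in GRdim, so the scores of the 2 genotypes covered much the same range there. Region 5 (68937144 to 68937393) was listed in WT after prednisolone alone, at 2.70, and in all 3 GRdim lists at 3.26, 2.49 and 2.04.

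In the Per2 window the region of highest WT score was Per2 region 3 (chromosome 1, 93332946 to 93333156), with 7.69 at 6am, 9.87 at 6pm and 9.04 after prednisolone. GRdim listed it at 6am only, with a score of 2.13, close to the lowest score of that list (2.03). A separate region centred 332 bp away, Per2 region 4 (93333274 to 93333496), was listed in GRdim alone, with 5.13 at 6pm and 2.64 after prednisolone. Per2 region 8 (93342684 to 93342965) was the third region of the windows found in all 6 lists, with 4.03, 7.53 and 2.18 in WT and 3.33, 4.71 and 2.34 in GRdim. The 6pm score was the highest of the 3 in either genotype, as was the median of the 6pm list.

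The other 7 Per2 regions scored below 4. Region 6 (93336769 to 93336968) was listed in GRdim at 6pm alone, with 2.46, and lay 330 bp from region 5 (93336439 to 93336638), which WT listed at 6pm alone with 2.96. Region 10 (93362157 to 93362356) was listed in WT after prednisolone alone, with 2.06. Regions 1, 2, 7 and 9 were each listed in WT at 6pm and not at 6am, with scores of 3.18, 2.19, 3.98 and 3.03, and all but region 2 also appeared in GRdim at 6pm.

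The Cryptochrome windows held weaker peaks. Cry1 region 1 (chromosome 10, 84652798 to 84653099), the only GR region of its window, scored 3.35 in WT at 6am and 4.75 at 6pm and was not listed after prednisolone. In GRdim it was not listed at 6am and scored 3.83 at 6pm and 2.12 after prednisolone. In the Cry2 window no region was in all 6 lists. Cry2 region 5 (chromosome 2, 92286070 to 92286300) came closest, with 4.07, 3.51 and 2.70 in WT, 3.22 and 2.00 in GRdim at 6am and 6pm, and no peak in GRdim after prednisolone. Cry2 region 6 (92286816 to 92287071), 737 bp away, scored 3.69 in WT at 6pm and 2.57 and 4.00 in GRdim at 6am and 6pm. Cry2 region 2 (92260616 to 92260841) was listed in WT at 6pm and after prednisolone, with 2.70 and 3.75, and in no GRdim list. Regions 1, 3 and 4 scored between 2.01 and 2.96 and were listed in WT alone.

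**Figure D2:**
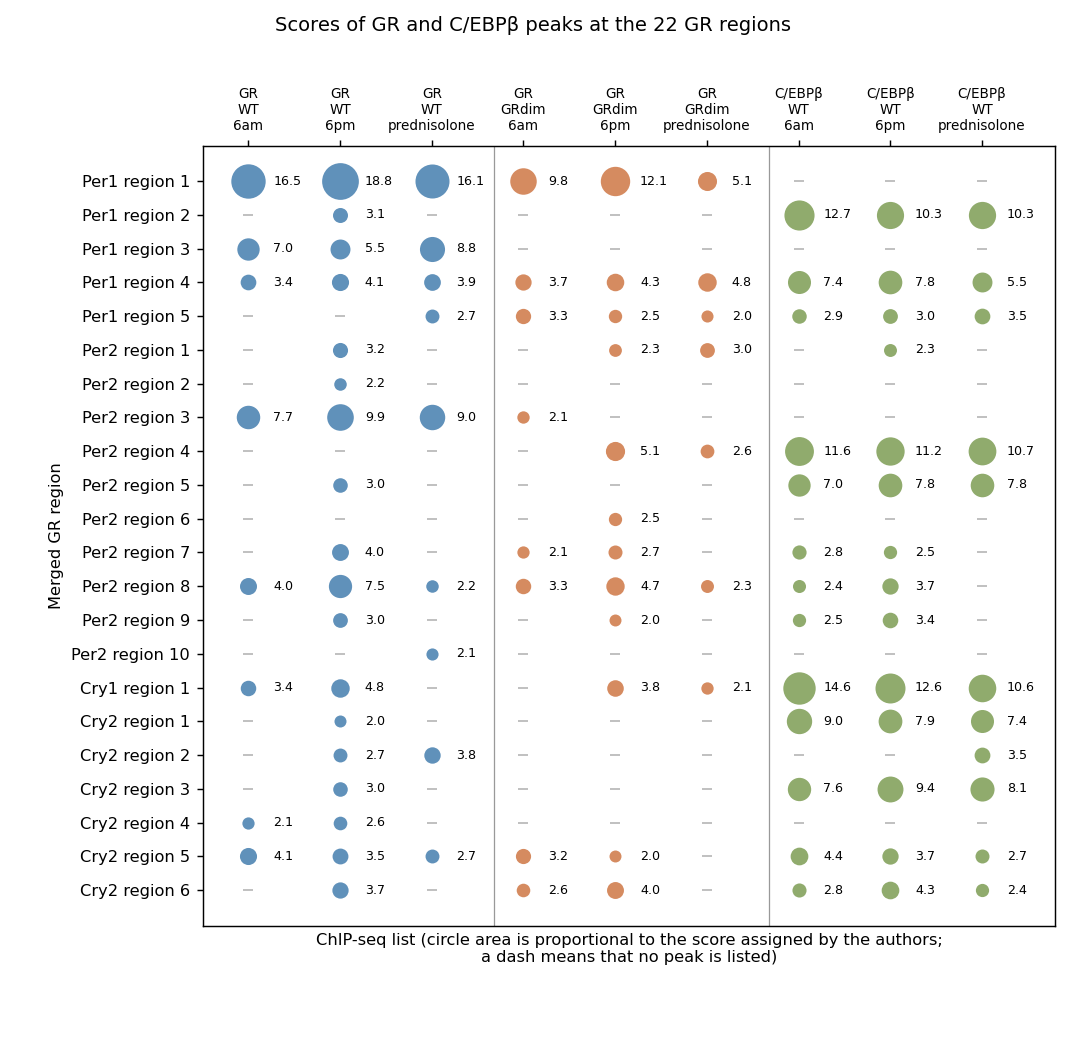
Scores of GR peaks (columns 1 to 6) and of overlapping C/EBPβ peaks (columns 7 to 9) at the 22 merged GR regions, with circle area in proportion to the score and a dash where no peak is listed. Per1 regions 1 and 4 and Per2 region 8 fill all 6 GR columns, and Per1 regions 1 and 3 and Per2 region 3 have dashes in the C/EBPβ columns.

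By time and treatment, the counting interval of each share in the windows contained the share of the whole list. Of the 18 WT peaks at 6pm, 10 (55.6%, 95% Wilson interval 33.7 to 75.4) had no overlapping 6am peak, against 60.5% of the whole list. This share was 2 of 9 (22.2%) among the higher-scoring 50% of peaks and 1 of 7 (14.3%) with lists of equal length. The 60.5% is of the full lists, and whole-list shares at these settings were not computed. Of the 9 WT peaks after prednisolone, 3 (33.3%, 12.1 to 64.6) had no 6am peak, against 25.8%, namely Per1 region 5, Per2 region 10 and Cry2 region 2. Of the 8 WT peaks at 6am, 2 (25%, 7.15 to 59.1) had no peak after prednisolone, against 44.8%, and these were Cry1 region 1 and Cry2 region 4. In GRdim, 5 of 12 peaks at 6pm (41.7%, 19.3 to 68.0) had no 6am peak, against 60.2%. These intervals cover counting error only.

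By genotype it did so in all comparisons but 1. WT peaks without a GRdim peak were 3 of 8 at 6am (37.5%, 13.7 to 69.4, against 52.5% of the list), 9 of 18 at 6pm (50%, 29 to 71, against 50.6%) and 5 of 9 after prednisolone (55.6%, 26.7 to 81.1, against 51.5%). At equal list length the 6pm share was 2 of 9 (22.2%), a setting at which no whole-list share was computed. In the reverse direction, 3 of 8 GRdim peaks had no WT peak at 6am (37.5%, 13.7 to 69.4, against 13.8%), 3 of 12 at 6pm (25%, 8.89 to 53.2, against 5.34%) and 3 of 7 after prednisolone (42.9%, 15.8 to 75, against 34.9%). The 6pm interval lay above the share of the whole list and the 6am one only just contained it. Each rested on 3 peaks, which at 6am were Per1 region 5, Per2 region 7 and Cry2 region 6 and at 6pm Per1 region 5 and Per2 regions 4 and 6. Over all lists, 9 of the 22 regions (40.9%) were in WT lists only, against 48.6% of all regions, 2 (9.09%) in GRdim lists only, against 3.09%, and 11 (50%) in both, against 48.4%. Regions found at 6pm alone were 7 of 22 (31.8%), against 49.7%.

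C/EBPβ was listed in all 5 windows and at most of the weaker GR regions. The 3 GR regions of highest score in any list, Per1 regions 1 and 3 and Per2 region 3, had no overlap. Per2 region 8, which outscored Per1 region 3 in WT at 6pm (7.53 against 5.55), overlapped a C/EBPβ peak at 6pm (score 3.71). The 113 C/EBPβ peaks merged into 46 regions, 13 in the Per1 window, 12 at Per2, 1 at Per3, 9 at Cry1 and 11 at Cry2, and 30 of the 46 (65.2%, Wilson interval 50.8 to 77.3) were in all 3 C/EBPβ lists, against 53.7% of all merged C/EBPβ regions. Of the 46, 16 (34.8%, 22.7 to 49.2) overlapped a GR region, against 41.1%. In the other direction 15 of the 22 GR regions (68.2%, 47.3 to 83.6) overlapped a C/EBPβ region, against 82.5%.

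At Per1 region 1 no C/EBPβ peak overlapped, and the nearest centre was 1833 bp away at 6am, 1815 bp at 6pm and 1845 bp after prednisolone. Per1 region 3 and Per2 region 3 had none either, with nearest centres 504, 522 and 492 bp away and 302, 307 and 308 bp away. The strong C/EBPβ peaks of these clusters lay beside the GR summits. The peak at chromosome 11, 68912300 to 68912529, between Per1 regions 1 and 3, scored 12.66, 10.29 and 10.34 and overlapped the weak Per1 region 2. The peak at chromosome 1, 93333255 to 93333460, scored 11.61, 11.18 and 10.74, and its centre was 24 to 30 bp from that of Per2 region 4, which GRdim alone listed. At Cry1 the C/EBPβ peak under region 1 scored 14.63, 12.55 and 10.59 and ranked 172nd of 21644, 442nd of 26226 and 652nd of 21941, well above the rank of the GR peak, which was 2084th of 5781 at 6am.

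Within a condition, C/EBPβ overlapped 4 of 8 WT GR peaks of the windows at 6am (50%, Wilson interval 21.5 to 78.5), 12 of 18 at 6pm (66.7%, 43.7 to 83.7) and 4 of 9 after prednisolone (44.4%, 18.9 to 73.3). The whole lists had 79.7%, 83.2% and 75.7%, each above the window share, although at 6pm the interval contains the share of the whole list and at 6am and after prednisolone its upper bound lies just below. With lists of equal length, 0 of 9 peaks after prednisolone had one. That setting kept only the 4304 highest-scoring of the 21941 C/EBPβ peaks, and the whole-list share at it was not computed. Among GR peaks scoring at least 4, a filter added after the data were seen, the counts were 2 of 5, 3 of 6 and 0 of 3, against 84.8%, 92% and 76.6%. With C/EBPβ centres up to 500 bp away counted, they were 6 of 8, 15 of 18 and 6 of 9, against 83.6%, 86.2% and 79.2%, so the windows stood closer to the lists on that wider measure.

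At Per3 the single C/EBPβ region (chromosome 4, 150417396 to 150417595) scored 2.97 at 6pm and 2.33 after prednisolone and was not listed at 6am. The window also held 3 ChIP-exo borders, 1 in WT at 6pm with 10 tags and 2 in GRdim after prednisolone with 8 tags each, and none lay in a GR peak. These counts are low, and GR binding at Per3 below the score limit of the lists would not be seen.

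ChIP-exo adds positions at base scale. An exonuclease digests each strand from its 5′ end up to the crosslinked protein, so a bound site leaves a border on the plus strand to its left and on the minus strand to its right. Each listed border spans 10 bp on 1 strand and carries a tag count, also given as RPM, which is scaled to the library's total, and the lowest count listed was 3 tags, or 4 in GRdim at 6am. Library totals, as tags over RPM, were 31.6 to 55.7 M tags, the fewest in GRdim at 6am, which also had the fewest borders (14391 against 35220 to 66573 in the others). At least 1 border overlapped 53 of the 62 GR peaks (85.5%, Wilson interval 74.7 to 92.2), against 84.9% of all GR peaks. With a border of at least 20 tags it was 41.9% of the 62, and no whole-list share was computed at that minimum. The 62 peaks are listings of 22 regions, some of them counted in all 6 lists, so this interval is too narrow. All 8 WT 6am peaks had a border (97.6% in the list), as did 14 of 18 at 6pm (77.0%) and all 9 after prednisolone (95.3%), and in GRdim 6 of 8 (77.6%), 9 of 12 (82.2%) and all 7 (97.1%).

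The tags of all borders within 100 bp of a region's centre were summed. At Per1 region 1 the sum was 29.1 RPM in WT at 6am (95% Poisson interval 27.7 to 30.5, 15 borders), 22 at 6pm (20.7 to 23.5, 9 borders) and 30.9 after prednisolone (29.4 to 32.4, 13 borders). In GRdim it was 10.1 (8.98 to 11.2, 8 borders), 15 (13.9 to 16.2, 15 borders) and 7.46 (6.69 to 8.30, 12 borders). Each GRdim library was below each WT library, and the order of 6am and 6pm was opposite in the genotypes. The intervals cover counting error only, and the sums move with how many borders were listed.

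The GRdim to WT ratio at Per1 region 1 was 0.346 at 6am, 0.680 at 6pm and 0.241 after prednisolone. Over all merged regions with at least 100 tags in the WT library, the median ratio was 0.150 (quartiles 0 to 0.463, 2494 regions), 0.233 (0.0663 to 0.503, 2852 regions) and 0.131 (0 to 0.689, 1972 regions). Regions entered these sets by their WT tags alone, and a GRdim library without a listed border counted as 0, so low ratios are favoured. The sets for the ratios below were likewise chosen by the library in the denominator. Within these sets Per1 region 1 was above the median at all 3 and above the upper quartile at 6pm. By summed tags its peak ranked 22nd, 113th and 41st in the WT lists and 10th, 5th and 37th in the GRdim lists.

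At Per1 region 3 the sums were 9.10 RPM (8.32 to 9.93, 9 borders), 3.50 (2.97 to 4.11, 2 borders) and 13.2 (12.2 to 14.2, 13 borders) in WT, and no GRdim library listed a border there. Over all regions with at least 100 tags in WT, the lower quartile of the GRdim to WT ratio was also 0 at 6am and after prednisolone. At 6pm that quartile was 0.0663. The WT value at 6pm was the lowest, at 0.385 of that at 6am, while the median region was at 1.33 (quartiles 0.871 to 1.85), and after prednisolone it was at 1.45, against a median of 0.620 (0.310 to 1.02). It thus stood below the lower quartile of the first ratio and above the upper quartile of the second.

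At Per2 region 3 the WT sums were 8.6 RPM (7.84 to 9.40, 13 borders), 10.2 (9.27 to 11.2, 10 borders) and 12.5 (11.6 to 13.4, 14 borders). GRdim had 0.221 (1 border), 0.799 (3 borders) and 0.576 (3 borders), which is 0.0257, 0.0783 and 0.0462 of WT. Of all regions with at least 100 tags in WT, 34%, 27% and 40.7% had a lower ratio, so this region stood between the quartiles each time. The ratio after prednisolone to 6am in WT was 1.45, as at Per1 region 3, and that of 6pm to 6am was 1.19.

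Per1 region 4 went the other way by genotype. WT had 0.844 (0.620 to 1.12), 0.510 (0.320 to 0.773) and 0.640 RPM (0.446 to 0.890), from 2 or 3 borders each, and GRdim had 1.45 (1.06 to 1.94), 1.69 (1.33 to 2.12) and 2.13 (1.72 to 2.60), from 3 to 5 borders. The intervals overlapped at 6am and did not at 6pm or after prednisolone. Per2 region 4, listed as a peak in GRdim alone, held borders in WT too, with 0.987, 0.974 and 3.09 RPM (2.64 to 3.59 for the last) in WT against 1.85 at 6pm and 1.73 after prednisolone in GRdim and none at 6am, so ChIP-exo did not put it in GRdim alone.

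Cry2 region 2 was highest after prednisolone, with 0.413 RPM (0.262 to 0.619, 3 borders) at 6am, 0.649 (0.432 to 0.939, 1 border) at 6pm and 3.93 (3.42 to 4.49, 7 borders) after prednisolone in WT, and no border in GRdim. Per2 region 8 and Cry2 region 5 were lowest after prednisolone in WT. Region 8 had 2.91, 4.17 and 0.695 RPM, and region 5 had 2.57, 1.88 and 0.677, which is 0.239 and 0.264 of 6am and below the lower quartile for both. Cry1 region 1 stayed at 1.07 RPM or less in all 6 libraries.

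**Figure D3:**
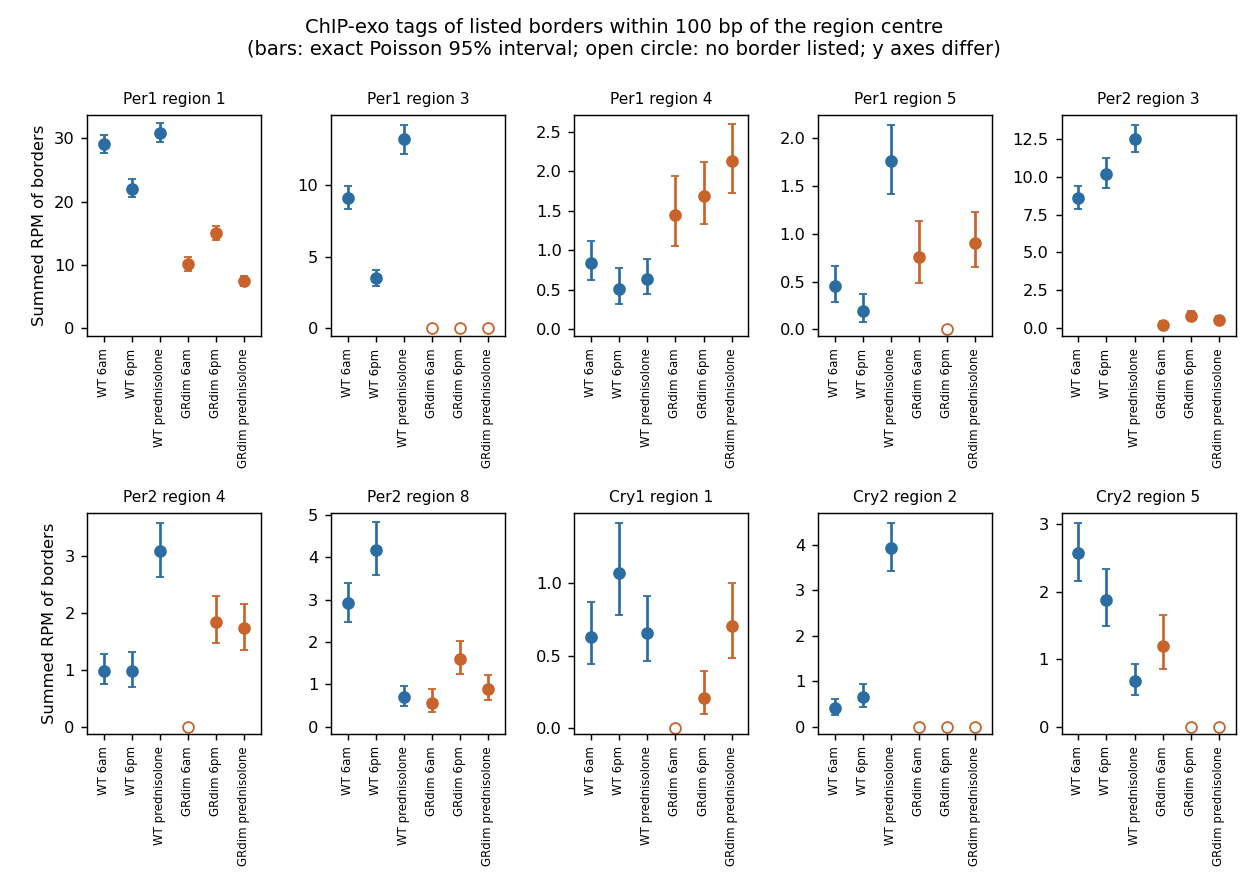
Summed ChIP-exo RPM of listed borders within 100 bp of the centre of 10 GR regions in the 6 libraries (blue WT, orange GRdim), with exact Poisson 95% intervals, open circles where no border was listed, and a separate y axis for each region. Per1 region 3 and Cry2 region 2 have no border in GRdim, and Per1 region 4 is higher in GRdim than in WT under each condition, with overlapping intervals at 6am.

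The spacing of borders was described by the distance from the strongest plus-strand to the strongest minus-strand border within 100 bp of the peak centre, a negative value meaning that the minus border lay to the left. Of the 62 peaks, 40 had both, and 4 (10%) lay at 29 to 31 bp. In the whole lists the share at 29 to 31 bp, taken in the same way, was 9.12%, 6.18% and 13.1% for WT and 2.39%, 2.31% and 2.24% in GRdim. With at least 20 tags on each border the window share was 4 of 16 (25%), and with the closest plus-before-minus pair 1 of 35 (2.86%). No whole-list share was computed for either of these alternatives. The 4 were all in WT, at Per1 region 3 (30 bp at 6am and 31 bp after prednisolone), Per2 region 3 (31 bp at 6am) and Cry2 region 5 (29 bp at 6pm). The 10% pools the 6 lists, and the list shares are higher in WT, so the placing of these 4 does not compare the genotypes. A distance of 10 to 12 bp, which 10.3%, 5.38% and 13.6% of WT and 5.79%, 3.39% and 5.52% of GRdim peaks with both borders showed, was seen after prednisolone in WT at Per2 region 3 (11 bp) and Cry2 region 2 (12 bp), and in GRdim at 6pm at Per2 region 1 (12 bp). These are single peaks, and no share of the windows was computed at this distance. None lay at 24 to 26 bp, where the lists had 4.17%, 2.74% and 3.43% in WT and 5.43%, 4.47% and 6.1% in GRdim.

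Positions below are counted from the strongest plus border of WT after prednisolone, set to 0, with plus borders written P and minus borders M. At Per1 region 3 the borders of most tags formed a compact group. In WT after prednisolone they were P at 0 (179 tags) and 21 (55 tags) and M at 11 (102 tags) and 31 (169 tags), and those of 20 to 51 tags were P at -76, -57 and -21 and M at 56 and 77. In WT at 6am the same group stood within 1 bp, with P at 1 (132 tags) and 21 (44 tags) and M at 12 (73 tags) and 31 (165 tags), and those of 20 to 30 tags were P at -22 and M at 71 and 83. At 6pm 2 borders alone were listed, with P at 0 (104 tags) and M at 32 (47 tags). The strongest P and M are thus 30 to 32 bp apart in all 3 WT libraries, and the inner M lies 11 bp from the left P and the inner P 10 bp from the right M at 6am and after prednisolone.

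At Per2 region 3 the borders spread over a wider stretch. Those of at least 20 tags in WT after prednisolone were P at -53 (38 tags), -40 (61 tags), -20 (84 tags) and 0 (95 tags) and M at -44 (24 tags), -31 (30 tags), -9 (66 tags), 11 (132 tags), 29 (53 tags) and 52 (44 tags). At 6am they were P at -50, -40, -19 and 0 and M at -31, -10, 12, 30 and 39, and at 6pm P at -75, -60, -39, -20 and 0 and M at -31, -10, 12, 33 and 54. Positions near -40, -20 and 0 on the plus strand and near -31, -10, 12 and 30 on the minus strand therefore came back in the 3 libraries within 4 bp, and the others were in 1 or 2 of them. With this many borders the strongest ones gave distances of 31, 51 and 11 bp, and 3 P and M pairs at 6am, 2 at 6pm and 3 after prednisolone were 29 to 31 bp apart. GRdim had 1 to 3 borders of 7 to 13 tags each there.

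**Figure D4:**
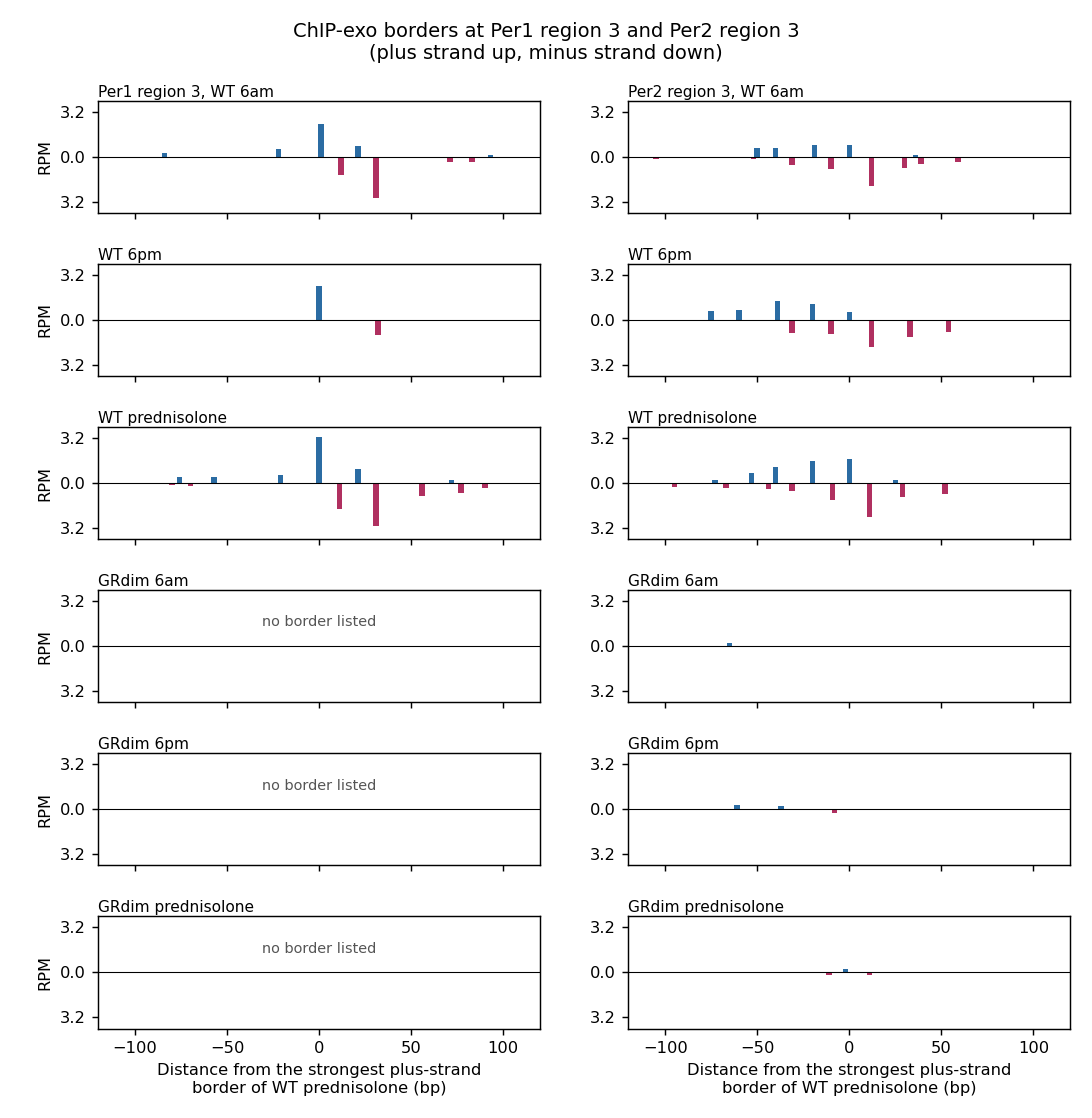
RPM of each ChIP-exo border at Per1 region 3 (left) and Per2 region 3 (right) in the 6 libraries, against distance in bp from the strongest plus-strand border of WT after prednisolone, with plus-strand borders up and minus-strand borders down. Several positions come back in the WT libraries, and GRdim has no border at Per1 region 3 and 1 to 3 low ones at Per2 region 3.

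At Per1 region 1, the site of highest score, both genotypes had many borders, some at shared and some at different places. WT after prednisolone had P at -30 (248 tags), 0 (374 tags) and 20 (187 tags) and M at 10 (201 tags) and 32 (297 tags). WT at 6am had P at -33, -8 (195 tags), 1 (269 tags) and 22 (212 tags) and M at 10 (156 tags) and 33 (271 tags), and WT at 6pm had P at -32 (260 tags), 0 (205 tags) and 22 (165 tags) and M at 41 (197 tags). A P border at 0 or 1 was therefore among the strongest in each WT library. WT borders of fewer than 156 tags are left out here, while weaker ones are named for GRdim below.

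In GRdim no P border was centred at 0 or 1, and the nearest were at -20 (58 tags) at 6am, -8 (66 tags) at 6pm and -7 (40 tags) after prednisolone. Since a border spans 10 bp, those at -8 and -7 overlap the WT border at 0 or 1. M borders in turn were centred at 0 (27 tags), 2 (58 tags) and 2 (46 tags), where no WT border was centred. WT had M at 10 at 6am and after prednisolone, which overlaps M at 2. Other places lay closer to those of WT. GRdim had the P border near -30, at -30 (54 tags), -32 (97 tags) and -31 (57 tags), and the one near 20, at 26 (47 tags), 21 (76 tags) and 24 (41 tags). On the right the strongest M lay at 33, 41 and 32 in WT, and GRdim had M at 41 (52 tags), at 33 and 39 (60 tags each) and at 37 (47 tags). The P at -8 of WT at 6am also had a neighbour in the 6pm and prednisolone libraries of GRdim. A weaker P of WT after prednisolone, at -55 (84 tags), had neighbours in GRdim at -48 (28 tags), -52 (48 tags) and -55 (18 tags). WT listed no P near that place at 6am or 6pm. From the strongest P to the strongest M WT had a distance of 32 bp at 6am, 73 bp at 6pm and 32 bp after prednisolone, and GRdim had 61, 65 and 68 bp. The mean border there held 28.1 to 43.7 raw tags in GRdim and 106 to 130 in WT. Library totals at 6am, at 6pm and after prednisolone were 31.6, 43.8 and 45.2 M tags in GRdim and 55.7, 43.1 and 54.7 M in WT. The raw counts were not scaled to these totals. The part that this difference played in which borders were listed was not tested.

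**Figure D5:**
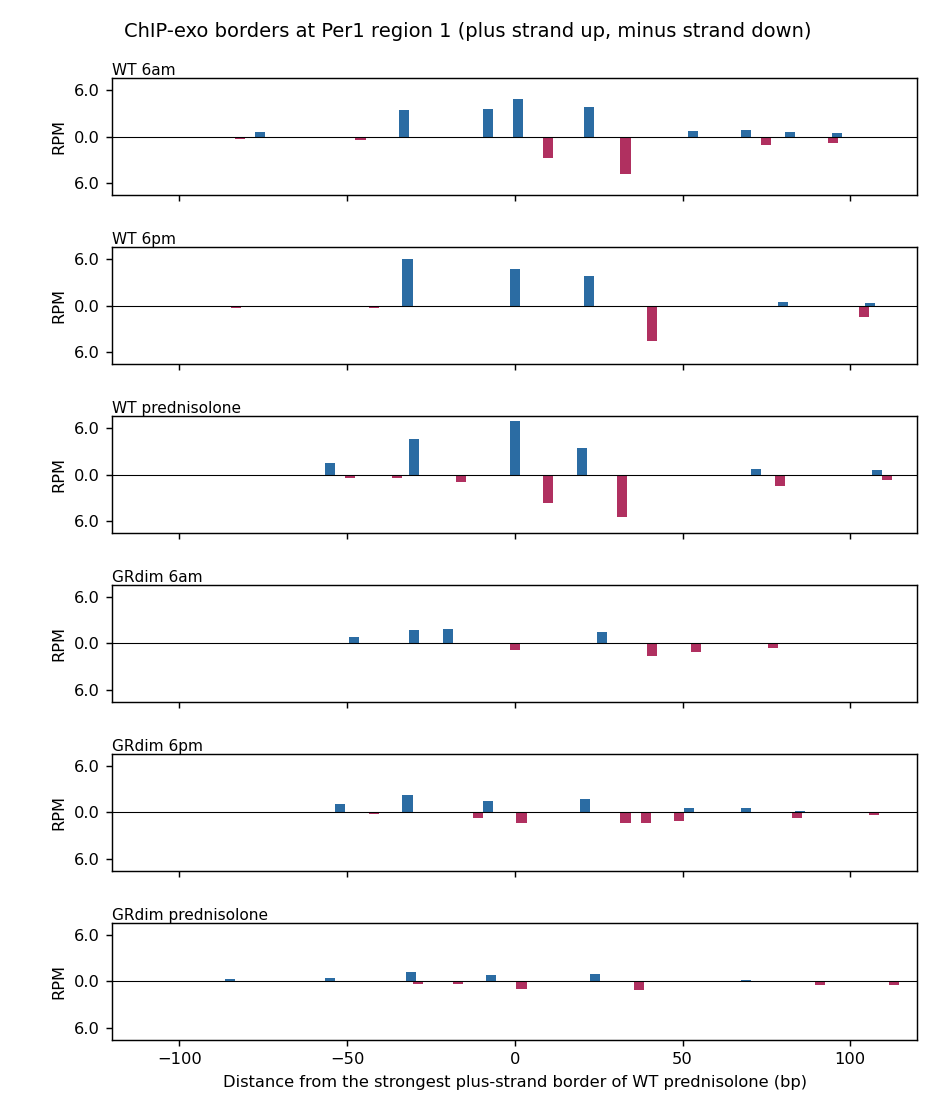
RPM of each ChIP-exo border at Per1 region 1 in the 6 libraries, against distance in bp from the strongest plus-strand border of WT after prednisolone, with plus-strand borders up and minus-strand borders down. A plus border is centred at 0 or 1 bp in the 3 WT libraries, and none is centred there in the 3 GRdim libraries. Each border spans 10 bp, so the GRdim plus borders at -8 (6pm) and -7 (prednisolone) overlap that WT position.

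Cry2 region 2 after prednisolone had P at -68 (21 tags), -48 (19 tags), -25 (41 tags) and 0 (51 tags) and M at -37 (14 tags), 12 (58 tags) and 75 (11 tags). Its step from the P at 0 to the M at 12 was 12 bp. The step from the P at 0 of Per2 region 3 was 12 bp at 6am and 6pm and 11 bp after prednisolone. At 6pm Cry2 region 2 had a single M at 13 (28 tags), and at 6am 3 borders of 6 to 9 tags.

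Borders of the windows lay in a GR peak of some list in shares whose Wilson intervals contained those of the whole lists. Many borders lay in the same region, so these intervals are too narrow. In WT the shares were 88 of 107 (82.2%, against 79.2%) at 6am, 69 of 83 (83.1%, against 81.9%) at 6pm and 97 of 124 (78.2%, against 75.1%) after prednisolone. In GRdim they were 19 of 20 (95%, 76.4 to 99.1, against 79%), 58 of 68 (85.3%, against 83.8%) and 52 of 58 (89.7%, 79.2 to 95.2, against 79.5%). Borders in a C/EBPβ peak alone numbered 6, 2, 4, 1, 4 and 1 in that order, and their whole-list shares were not computed. The highest count outside any GR peak was 33 tags, in WT at 6am in the Per1 window. That border lay just outside Per1 region 1, at -124 bp from its centre.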

How the data were processed

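GR ChIP-seq, GR ChIP-exo and C/EBPβ ChIP-seq lists of mouse liver were used as the authors deposited them, each 1 pool of 2 replicates per the labels. Bowtie, HOMER and mm9 are named in the submitters' processing notes, with roles, versions and calling thresholds not given in the sources used here. The deposited ChIP-seq files give a score per 200 bp peak, assigned by the authors and of a normalization not stated. The deposited ChIP-exo files give, per the file headers, a tag count per 10 bp border on 1 strand and its RPM, scaled by the authors to the library, from which the library size was recovered as tags over RPM. The other ChIP-exo columns per the file headers, a height signal among them, were not used for results.

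Members were found by the centre of each interval. The members, lists and measures were chosen with earlier results of these data known, and borders described singly were chosen after their values were seen. Overlap meant 1 bp or more. Named in full are, in each window, the 3 regions of highest score and every region in all 6 lists, regions of WT score of at least 4 that no GRdim list holds, regions listed in WT after prednisolone and not at 6am, and regions listed in GRdim alone. The rest are given by counts, ranges or single values. Shares have Wilson 95% intervals and summed tags exact Poisson 95% intervals, which cover counting error only, since tags carry no molecular identifiers. With 1 pool per group no test was possible. Alternatives were other overlap rules, stricter scores, lists of equal length, other windows, tag minimums and border pairings. Overlap and distance code was tested on simulated data. Tables were handled in Python 3.11.15 with pandas 2.3.3 and numpy 2.4.6, intervals computed with scipy 1.17.1 and plots drawn with matplotlib 3.10.9. The 12 input and 2 RNA polymerase II samples were not analysed here. A list of 18 other clock genes could not be placed on mm9 and was used for promoter motifs only.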

Additional observations from a re-analysis of the deposited data

Results flagged for a closer look

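At Per1 region 1 the summed ChIP-exo RPM at 6pm was 0.758 of that at 6am in WT and 1.49 times that at 6am in GRdim. The libraries of the 2 genotypes moved in opposite directions, and the difference was not tested, since each library is 1 pool. The list of borders differed as well, with 15 at 6am and 9 at 6pm in WT and 8 and 15 in GRdim, and its part in the ratios was not tested. Over all regions with at least 100 tags at 6am, the median of this ratio was 1.33 in WT (2494 regions) and 0.916 in GRdim (265 regions). The 2 sets differ, and each was chosen by the 6am tags of its own genotype, which favours low ratios. The 2 medians therefore do not compare the genotypes. The ChIP-seq score of the region was higher at 6pm than at 6am in both genotypes, 18.82 and 16.48 in WT and 12.05 and 9.80 in GRdim, so the 2 assays differ in order for WT. The median score of the whole list was also higher at 6pm than at 6am in both genotypes.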

How the results depend on the processing

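Of 59 alternatives over 12 results, 48 stayed within the interval or the 1.5-fold range of the value reported and 11 moved. The share of WT 6pm peaks without a 6am peak, 55.6% as reported, was 22.2% among the better-scoring 50% of peaks and 14.3% with lists of equal length. WT 6pm peaks without a GRdim peak, 50% as reported, were 22.2% with lists of equal length. WT prednisolone peaks with a C/EBPβ peak, 44.4% as reported, were 0% (0 of 9) with lists of equal length and 0% (0 of 3) at a GR score of at least 4, the last chosen after seeing the data. Peaks with a ChIP-exo border, 85.5% as reported, were 41.9% with a minimum of 20 tags and 100% in the higher-scoring 50%. The share of border distances at 29 to 31 bp, 10% as reported, was 25% (4 of 16) with at least 20 tags on each border and 2.86% (1 of 35) for the closest plus-before-minus pair. The windows held 62 GR peaks as reported, 22 at a score of at least 4, 36 in the higher-scoring 50%, 62 in narrower and 63 in wider windows. The cause of each change was not tested, beyond the fewer peaks or borders left by each filter. Among the shares that moved, a whole-list value was computed only at the GR score of at least 4. No paired analysis was possible because each list is 1 pool of replicates and no result comes from a test. With 7 to 18 peaks per list, shares are known only within about the width of their intervals, and binding below the lowest score or tag count of a list cannot be seen.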

Other observations

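The RefSeq promoters of 14 of 18 other clock genes were searched for the same 7 motifs. The E-box CACGTG was found at Bhlhe41, Ciart and Tef, 3 of 14, and in 7.15% of all promoters. The nuclear receptor half-site AGGTCA was found at Arntl, Clock, Nfil3 and Nr1d2, 4 of 14 (16.3% of all), and the GR half-site AGAACA at Csnk1e and Tef, 2 of 14 (19% of all). The C/EBP motif TTGCNNAA was found at Nr1d1 (10.8% of all) and the CRE TGACGTCA at Hlf (1.79% of all). The GR palindrome core ACANNNTGT (6.85% of all) and the D-box TTATGTAA (0.938% of all) were found at none of the 14.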
